A study of Danio rerio with 10 samples.

Results

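The comparison covered here sets nuclear against cytosolic RNA in zebrafish (Danio rerio, wild-type AB strain) embryos at the 64-cell, 256-cell and 1000-cell stages. It uses 6 of the 10 libraries of the series, 3 nuclear and 3 cytosolic, paired by stage. The libraries of the later dome and shield stages were not used. Of the 16383 transcripts in the table, 7892 had 10 or more counts in 2 or more of the 6 libraries, and these were tested. Pools of embryos were freed of their chorion with the protease Pronase and broken open in RLN lysis buffer on ice. After a spin, the supernatant was the cytosolic fraction, and the pellet, washed in the same buffer, was the nuclear fraction. All embryos were untreated apart from this. The nuclear fraction is therefore whatever stayed in the pellet. Whether nuclear or cytosolic marker RNAs divided between the fractions could not be checked, since none of the transcript IDs (0 of 16383) could be matched to a gene name.

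These stages span the cleavage divisions and the start of the midblastula period. A zebrafish egg is loaded with maternal RNA, and the cleaving embryo lives on it while its own genome is largely silent. Transcription begins in earnest around the midblastula transition, to which the 1000-cell embryo is close. RNA in the nuclear fraction of such embryos can be newly made transcript, RNA held in the nucleus, or maternal RNA that goes with the nuclei. It can also be RNA of any other material that stayed in the pellet. The comparison asks which transcripts took a larger share of the RNA in 1 fraction than in the other. Counts were scaled per library, so a ratio compares shares, not numbers of molecules, and does not tell how much RNA each fraction held.

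The cytosolic libraries held more counts at every stage. Total counts in the table, nuclear then cytosolic, were 8403209 and 14311969 at 64-cell, 7010646 and 9445461 at 256-cell, and 7662026 and 11715817 at 1000-cell. At these totals 3 counts equal 0.21 to 0.428 CPM, the unit that scales each library to the same total. The share of counts taken by a library's 10 leading transcripts was 8.13% ± 1.39 in nuclear and 5.74% ± 2.22 in cytosolic libraries (SD, n = 3 stages; exact two-sided sign-flip permutation test, p = 0.25). The nuclear share was the higher at 3 of 3 stages. With 3 pairs no p under 0.25 is possible, and the value adjusted over 3 library measures was 0.375. Each stage gave a single library per fraction, so the 3 stages serve as replicates throughout, and the spread between libraries includes the difference between stages.

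On average, libraries of 1 stage resembled each other more than libraries of 1 fraction did, though the range overlapped that of the cytosolic libraries. Between the nuclear and the cytosolic library of 1 stage, 18.2% of transcripts differed 2-fold or more at 64-cell, 20.8% at 256-cell and 20.9% at 1000-cell. Between 2 nuclear libraries of different stages the figure was 23.2 to 24.8%, and between 2 cytosolic libraries it was 19.8 to 22.6%. A change of fraction within a stage thus moved fewer transcripts past 2-fold than a change of stage within the nuclear fraction in each of the 3 pairs. The 3 nuclear libraries were also less alike than the 3 cytosolic ones. Pearson's r of log2 CPM was 0.864 to 0.883 among the nuclear and 0.906 to 0.913 among the cytosolic libraries, and 0.902 to 0.920 between the fractions of a stage. These are descriptions across 7892 transcripts that share their libraries. The nuclear library had the lower total at each stage. Among the nuclear pairs, r was 0.864 between 64-cell and 1000-cell and 0.883 for both pairs with 256-cell. These pairs differ in stage as well as in depth. The part of either in these correlations was not tested.

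**Figure D1:**
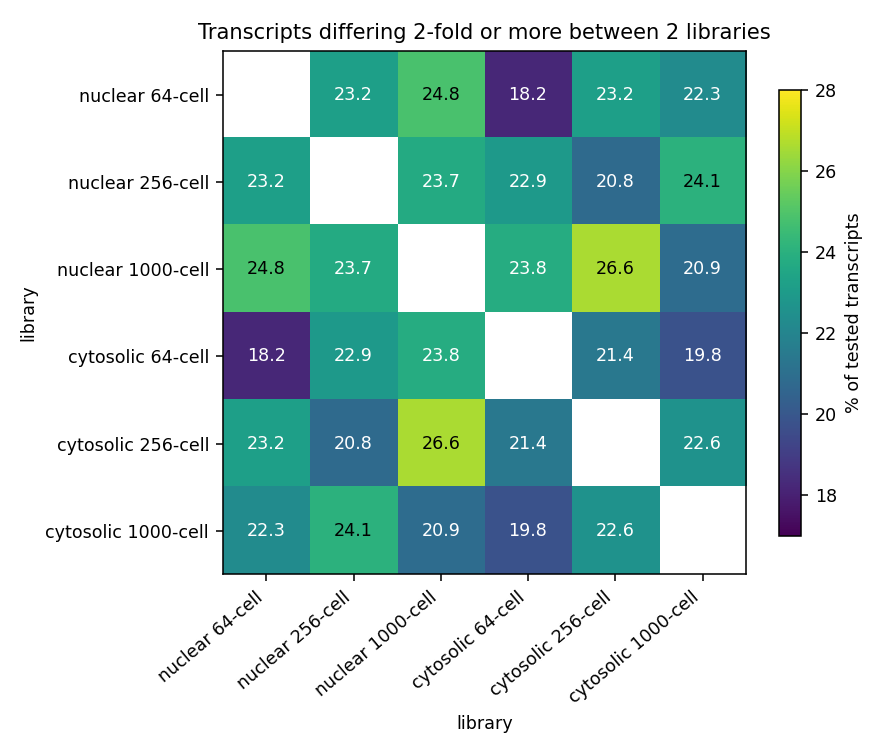
Percentage of the 7892 tested transcripts whose scaled log2 CPM differs 2-fold or more between each pair of the 6 libraries (rows and columns). The lowest value, 18.2%, lies between the fractions at 64-cell, and the 3 nuclear libraries differ from each other by 23.2 to 24.8%.

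No transcript differed between the fractions over the 3 stages by the threshold used. In edgeR's quasi-likelihood test with stage as a block, 0 of 7892 transcripts (0%) had an adjusted p-value under 0.05 in either direction, and the smallest adjusted p-value was 0.169. An unadjusted p-value under 0.05 was found for 321 transcripts higher in the nuclear fraction (4.07%) and 178 higher in the cytosolic fraction (2.26%). With library totals in place of TMM scaling the split turned to 262 nuclear and 304 cytosolic, so its direction depended on the scaling. With no difference at all, a share near 0.05 of the tested transcripts would have an unadjusted p-value under 0.05. The unadjusted numbers therefore do not count differences. DESeq2 called 200 transcripts, 148 of them nuclear and 52 cytosolic. Without the stage block edgeR called 5, with 1 nuclear and 4 cytosolic. The block leaves 2 residual degrees of freedom.

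Within each stage, many transcripts were shifted to one side. At 64-cell, 666 transcripts (8.44%) leaned to the nuclear side by 2-fold or more and 771 (9.77%) to the cytosolic side. At 256-cell the numbers were 956 (12.1%) and 686 (8.69%). At 1000-cell they were 951 (12.1%) and 697 (8.83%). Cytosolic shifts were the more frequent at 64-cell and nuclear shifts at the other two stages. They rest on single libraries and were not tested. Libraries of the same fraction at different stages also differed 2-fold or more, for 23.2 to 24.8% of transcripts in nuclear and 19.8 to 22.6% in cytosolic pairs.

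Under 2% of transcripts in either direction kept a 2-fold shift at all 3 stages. Over the 3 stages, 4889 transcripts (61.9%) never reached 2-fold, 1628 (20.6%) reached it at 1 stage, 752 (9.53%) reached it in 1 direction at 2 or 3 stages, and 623 (7.89%) reached it in opposite directions at different stages. At all 3 stages, 95 transcripts (1.2%) were nuclear by 2-fold or more and 37 (0.469%) were cytosolic. For the 3 nuclear transcripts just inside the limit the smallest log2 ratio was 1.007 to 1.014, and for the 3 just outside it 0.983 to 0.998. On the cytosolic side its size was 1.003 to 1.012 inside and 0.956 to 0.987 outside. Without regard to size, 1186 transcripts (15%) had a nuclear sign at every stage and 1196 (15.2%) a cytosolic sign. For 489 transcripts (6.2%) the 3 nuclear CPM values all lay above the 3 cytosolic ones, and for 461 (5.84%) all below. With so few libraries, part of the transcripts meet either condition by random ordering alone. Of the 8 sign patterns over 3 stages, 1 is nuclear throughout and 1 cytosolic throughout. These counts are therefore not numbers of transcripts that differ between the fractions. The 2 directions were alike in number by sign and by overlap, while the 2-fold limit kept more nuclear than cytosolic transcripts. TMM scaling places the middle of the ratios near 0, with median log2 ratios of -0.005, 0 and 0.016 in order of stage. Alike numbers by sign are therefore largely set by the scaling and are not a result about the fractions. The sign and overlap counts were not redone with another scaling.

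**Figure D2:**
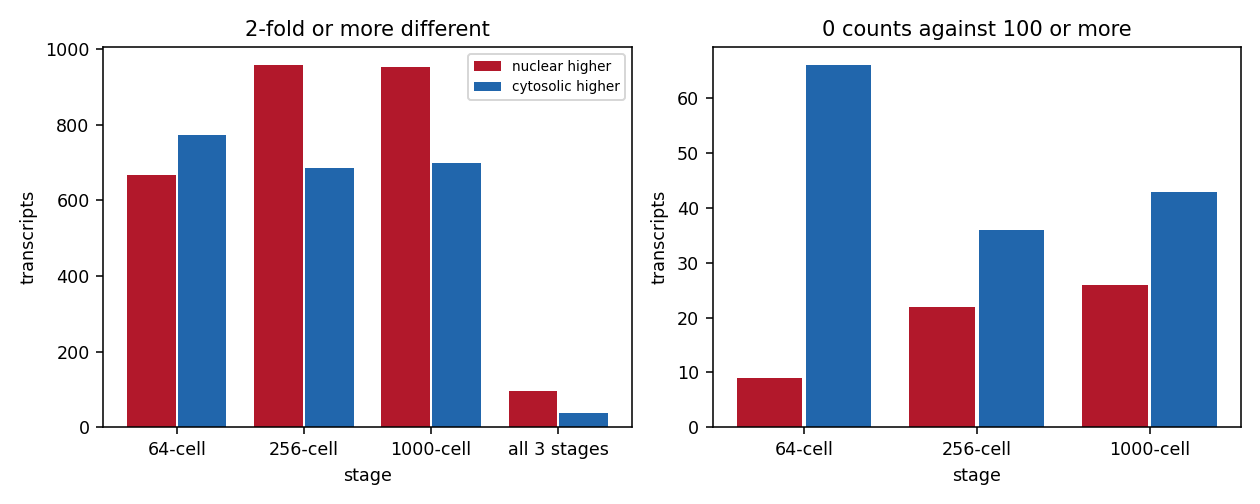
Left, number of transcripts that were nuclear (red) or cytosolic (blue) by 2-fold or more, at each stage and at all 3. Right, number with 0 counts in 1 library of a stage and 100 or more in the other. At all 3 stages 95 transcripts were nuclear and 37 cytosolic, and in the right panel the cytosolic bars are the taller at each stage.

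Recurrence was highest on the nuclear side between 256-cell and 1000-cell. Of the nuclear transcripts at 256-cell, 37.9% were also nuclear at 1000-cell, which was 38.1% of the 1000-cell list (362 transcripts). On the cytosolic side, 22.4% of the 256-cell list and 22.1% of the 1000-cell list were shared (154 transcripts). Between 64-cell and 256-cell the shared nuclear transcripts made up 27.6% and 19.2% of the respective lists, and the shared cytosolic ones 20.4% and 22.9%. For 64-cell and 1000-cell the nuclear figures were 31.4% and 22.0% and the cytosolic ones 21.7% and 24.0%. Shifts in the opposite direction at the later stage of a pair were seen for 13.9 to 23.1% of a list over the 6 pairs of lists. The lowest value belonged to the nuclear transcripts of 256-cell and the highest to the cytosolic transcripts of 64-cell, of which 20.4% kept their direction at 256-cell. Of all tested transcripts, the nuclear lists held 8.44%, 12.1% and 12.1% and the cytosolic lists 9.77%, 8.69% and 8.83%, in order of stage. Percentages kept and reversed thus have unequal bases, and reversal cannot be called more frequent than persistence from them.

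The size of the shifts fell with mean log2 CPM, in part by construction. The tested transcripts were put in 4 equal bins of 1973 by their mean log2 CPM. That mean covers the same 6 libraries as the ratios. A transcript near 0 in some libraries thus drops to a lower bin through its own shift. Mean counts reached 1613 in the least abundant bin, while the most abundant one began at 1042. How much of the trend comes from this was not tested. In the least abundant bin (median of 15.2 mean counts), 41.0% of transcripts were 2-fold or more different at 64-cell, 47.1% at 256-cell and 45.5% at 1000-cell. In the most abundant bin (median of 2656 mean counts) the values were 2.99%, 3.95% and 4.31%. The shares of an abundant transcript in both fractions of a stage were thus mostly within 2-fold of each other. In that bin 92.9% of transcripts never reached 2-fold, against 19.1% in the least abundant bin. The median log2 ratio stayed between -0.04 and 0.15 in every bin and stage. Of the 95 nuclear transcripts 18 lay in the most abundant bin, and of the 37 cytosolic ones 1 did. Among the 100 most abundant, 82 never reached 2-fold, 7 were nuclear at all 3 stages and 0 were cytosolic at all 3.

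**Figure D3:**
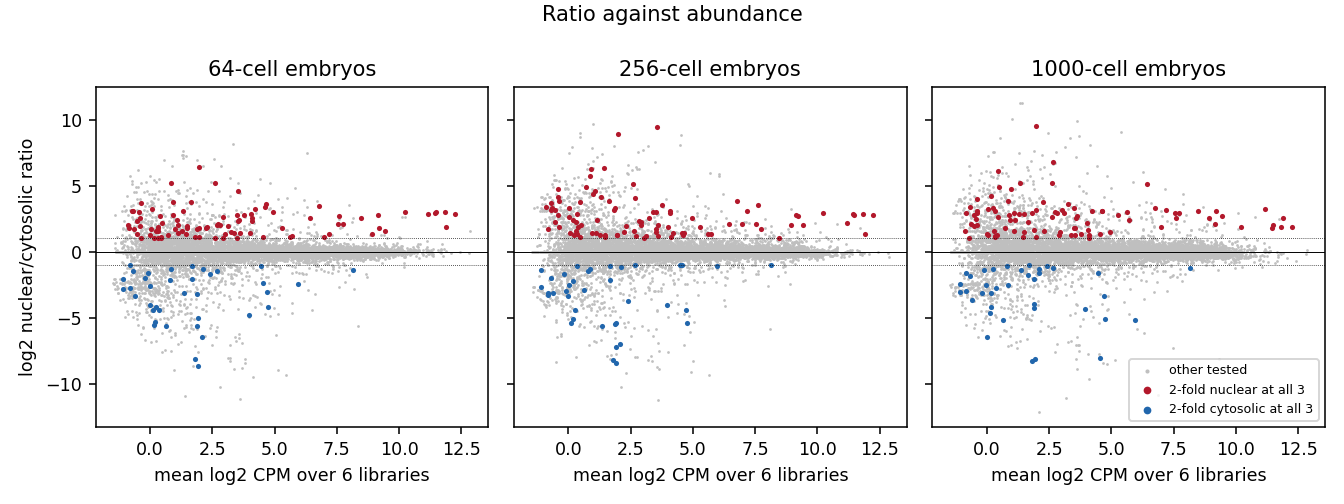
Log2 nuclear/cytosolic ratio (vertical axis) against mean log2 CPM over the 6 libraries (horizontal axis) for each tested transcript at 64-cell, 256-cell and 1000-cell. Red points are the 95 transcripts 2-fold or more nuclear at all 3 stages and blue points the 37 cytosolic ones. The cloud narrows with abundance, and 18 red points but 1 blue one lie in the most abundant bin.

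Among abundant transcripts the ratios at 256-cell and 1000-cell moved together. In the most abundant bin, Spearman's rho between the ratios at these stages was 0.54 (Pearson's r 0.469, 1973 transcripts). For the ratio at 64-cell the measures differed, with rho of 0.00 to 256-cell and -0.04 to 1000-cell but r of 0.257 and 0.153. In the least abundant bin rho between 256-cell and 1000-cell was 0.13, and over all 7892 transcripts it was 0.233. These are descriptions across transcripts. The 3 ratios come from separate libraries, but all transcripts of a ratio share the same 2 libraries.

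**Figure D4:**
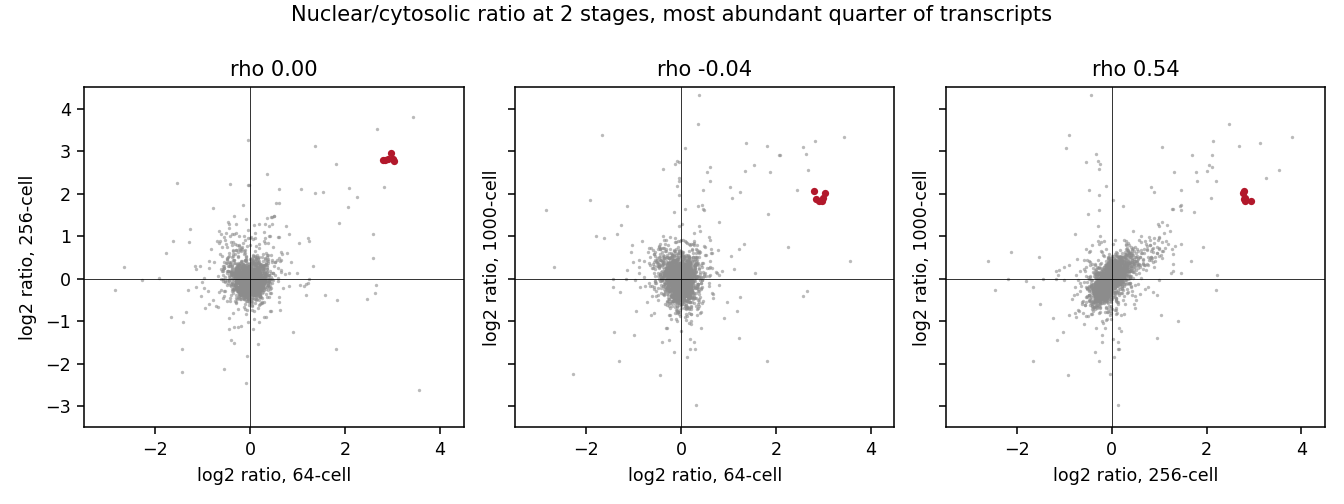
Log2 nuclear/cytosolic ratio at 1 stage against another for the 1973 transcripts of the most abundant bin, with Spearman's rho above each panel and 6 transcripts outside the axes. Red points are the 6 transcripts with neighbouring IDs. The cloud is round where 64-cell is on an axis and elongated for 256-cell and 1000-cell.

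The 95 transcripts that were nuclear at all 3 stages held a sizeable part of the nuclear counts. They took 5.27% of the nuclear and 0.912% of the cytosolic counts at 64-cell, 6.19% and 1.15% at 256-cell, and 6.85% and 1.51% at 1000-cell. Since their ratios chose them, these shares only describe them. Their mean counts ran from 4.67 to 55968 with a median of 112. The 37 cytosolic transcripts were rarer, with a median of 44.2 and a highest mean of 3420 counts. They held 0.0318% of the nuclear and 0.160% of the cytosolic counts at 64-cell, 0.0407% and 0.146% at 256-cell, and 0.0218% and 0.145% at 1000-cell. A 4-fold or larger ratio at all 3 stages was found for 18 of the 95 and 17 of the 37. The cytosolic set was smaller, and a larger part of it lay past 4-fold. However, 8 of the 37 had 0 counts in all 3 nuclear libraries, and 2 of the 95 had 0 in all 3 cytosolic ones. Such transcripts passed the filter through 1 fraction alone, and a count of 0 makes a ratio large. The 2 parts past 4-fold are therefore not on an equal footing.

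A block of transcripts with neighbouring IDs held much of the nuclear set's counts. All 6 transcripts in the table with IDs from ENSDART00000093596 to ENSDART00000093625 belong to it. They were singled out after their values were seen. Whether their RNA lay in nuclei or in other material of the pellet was not tested. Together they held 3.34%, 4.40% and 3.57% of the nuclear counts at 64-cell, 256-cell and 1000-cell, and 0.453%, 0.649% and 1.03% of the cytosolic counts. The lowest nuclear share was over 3 times the highest cytosolic one. The 95% Wilson intervals of these shares are narrow (4.39 to 4.42% for the nuclear 256-cell library) and cover counting error only. The most abundant member, ENSDART00000093625, had nuclear counts of 81355, 102456 and 76999 and cytosolic counts of 19966, 20553 and 34478, in order of stage.

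The members of the block had nearly the same ratio at each stage. Their log2 ratios lay between 2.81 and 3.03 at 64-cell, between 2.77 and 2.94 at 256-cell, and between 1.83 and 2.06 at 1000-cell. All 6 were thus less nuclear at 1000-cell than at both earlier stages, where the cytosolic share was lower. The 6 ratios of a stage come from the same 2 libraries, so the members are not separate observations of a change with stage. That change was not tested. Over the 3 stages their fitted log2 fold changes were 2.508 to 2.603, and edgeR's adjusted p-values were 0.424 to 0.470. Within 0.25 of the block's median log2 ratio at every stage lay the 6 members and 2 other transcripts. The range is centred on the block itself, so its members' place in it gives no support. Of the 7 transcripts among the 100 most abundant that were nuclear at all 3 stages, 5 belonged to the block.

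The transcripts with the widest separation were taken by a rule. It took transcripts averaging 50 counts or more whose ratio passed 2-fold with 1 sign at all 3 stages, ranked by the smallest of their 3 ratios. There were 60 such nuclear and 18 such cytosolic transcripts, and the first 2 of each are named by ID, as no function can be assigned to them. The ratios that ranked them are given as descriptions.

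ENSDART00000147567 was at or near 0 in the cytosolic libraries. At 64-cell, 256-cell and 1000-cell its nuclear counts were 193, 663 and 1094 and its cytosolic counts 1, 0 and 0. Its nuclear level was 22.7, 99.2 and 148 CPM, highest at 1000-cell. The nuclear level was 341-fold the cytosolic one at 64-cell, with an exact counting interval of 60.4 to 13530, since it rests on 1 cytosolic count. The other two stages give lower bounds, which cannot be compared with that ratio. Against a floor of 3 counts in the cytosolic library it was at least 308-fold higher at 256-cell and at least 597-fold higher at 1000-cell. The edgeR adjusted p-value was 0.424.

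ENSDART00000140749 had the lowest p-value of all 7892 transcripts. It had 3405, 2809 and 2215 nuclear counts and 554, 279 and 359 cytosolic counts, in order of stage. The nuclear values, at 401, 420 and 300.0 CPM, all lay above the cytosolic ones, at 37.0, 29.9 and 29.7 CPM. The ratio was 10.9-fold, 14.1-fold and 10.1-fold, and the fitted log2 fold change was 3.53 (SE 0.14, edgeR adjusted p = 0.169).

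ENSDART00000055429 was seen in the cytosolic libraries alone, with 1221, 657 and 705 counts against 0 in each nuclear library. Against the floor of 3 counts per library its cytosolic level was at least 230-fold higher at 64-cell, 157-fold at 256-cell and 144-fold at 1000-cell. ENSDART00000038257 had the same pattern, with 841, 557 and 766 cytosolic counts and 0 nuclear counts at every stage. Its cytosolic level was at least 159-fold, 133-fold and 156-fold higher, in order of stage. Both levels were steady between stages, at 58.3 to 81.5 CPM and 56.1 to 63.4 CPM. Their edgeR adjusted p-value was 0.470. With DESeq2 the adjusted p-value was under 0.05 for all 4 named transcripts, from 1.66e-87 for ENSDART00000140749 to 6.67e-16 for ENSDART00000147567. In edgeR without the stage block it was 0.00725 for ENSDART00000140749, 0.0155 for ENSDART00000055429, 0.0105 for ENSDART00000038257 and 0.123 for ENSDART00000147567. The p-values of the 4 named transcripts, by any method, rest on the ratios that chose them and give no further support.

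**Figure D5:**
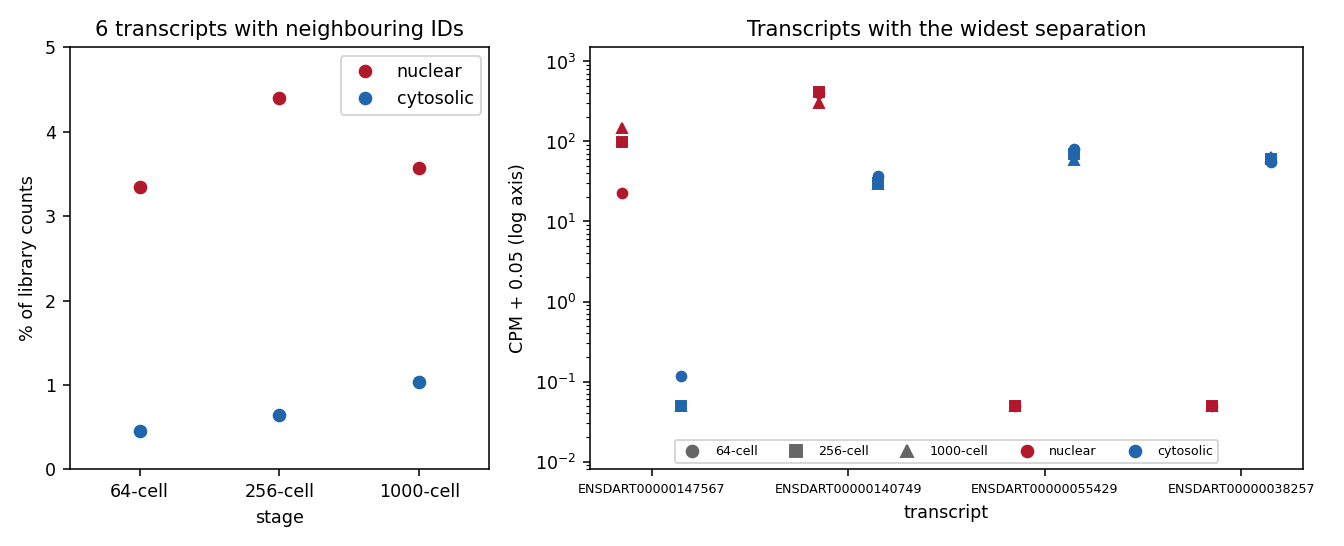
Left, share of each library's counts (%) held by the 6 transcripts with neighbouring IDs, by stage and fraction. Right, CPM + 0.05 (log axis) of the 4 transcripts with the widest separation, with 1 point per library. Nuclear and cytosolic points do not overlap in either panel, and the lowest points on the right are libraries with 0 counts or 1 count.

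Such all-or-none differences were seldom kept from stage to stage. In all, 152 transcripts (1.93%) had 0 counts in 1 library and 100 or more in the other library of the same stage at some stage. Nuclear cases made up 50 (0.634%) and cytosolic cases 121 (1.53%), with some transcripts in both. At 64-cell, 9 of them were nuclear (0.114%) and 66 cytosolic (0.836%), at 256-cell 22 (0.279%) and 36 (0.456%), and at 1000-cell 26 (0.329%) and 43 (0.545%). Cytosolic cases were the more frequent at every stage, and the cytosolic library was the deeper one at every stage. The part of depth in this was not tested. Of the 152, 109 met the condition at 1 stage, and 19 (0.241%) were nuclear at 1 stage and cytosolic at another. No transcript met it in the nuclear direction at all 3 stages, and 2, the pair named above, did in the cytosolic direction.

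For 104 of the 152, the fraction that had 0 counts at 1 stage had 100 or more at another. Reversals were also counted over all 7892 tested transcripts. A 4-fold or larger ratio in opposite directions at 2 stages was seen for 247 transcripts (3.13%). At 2 or more stages, 188 transcripts (2.38%) were 4-fold nuclear and 192 (2.43%) were 4-fold cytosolic. The 247 take in every order of reversal, while the other 2 numbers cover 1 direction each. Reversal therefore cannot be called more frequent than persistence from them. Of the 247, 176 lay in the least abundant bin and 1 in the most abundant. The bins rest on the same libraries as the ratios, so large shifts by themselves lower a transcript's bin. Counts per transcript divide the reads of a gene among its models, and how this was done is not given in the sources used here, so ratios of single transcripts are uncertain in that respect.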

How the data were processed

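Stranded total RNA libraries depleted of ribosomal RNA (a kit for human, mouse and rat) were sequenced, per the labels' protocols. The authors deposited 1 table of whole-number counts per Ensembl transcript ID. The submitters' processing notes name Trimmomatic 0.27, STAR 2.6.0a, StringTie and the Zv9 build. Annotation and counting settings are not given in the sources used here, and StringTie estimates abundance, so the counts may be rounded estimates. The table has 16384 lines with its header, which is 2 to the power 14. Whether it continues a longer table was not tested, and totals refer to these lines. Columns were matched to libraries by stage and fraction (0 unmatched).

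Fits used edgeR 4.0.16 in R 4.3.3 (TMM scaling, glmQLFit, glmQLFTest, stage as a block, Benjamini-Hochberg adjustment, threshold 0.05), with DESeq2 1.42.0 as an alternative. The edgeR fit was also run on simulated counts. A minimum of true calls was required there only with a fixed spread, not with the spread estimated from these data. The simulation thus does not tell how many real differences the test would miss. Log2 CPM used a prior count of 2. Stage pairs the libraries: after removal of fraction means, same-stage libraries correlated at 0.205 to 0.243. A shared embryo pool behind both is read from the protocol, not tested. Detection at equal depth is the number expected in 7010646 counts. Of the tested transcripts, 64 had under 10 counts in all cytosolic and 210 in all nuclear libraries, so they entered through the other fraction. The planned gene lists were not analysed, as no ID had a gene name. Transcripts were named by the rule in the text, up to 2 per direction. The comparison and rules were chosen with earlier results of these data known. Other steps used pandas 2.3.3, SciPy 1.17.1 and NumPy 2.4.6 in Python 3.11.15.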

Additional observations from a re-analysis of the deposited data

Results flagged for a closer look

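The number of transcripts detected at equal depth differed between the fractions in opposite directions. At 64-cell the nuclear library had fewer transcripts than the cytosolic one, 8448 against 8736 (nuclear minus cytosolic -288). At 256-cell it had 192 more (8835 against 8643) and at 1000-cell 232 more (8990 against 8758). The difference between stages was not tested, as each stage has 1 library per fraction.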

How the results depend on the processing

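Of 61 alternative values for the counts, correlations and library measures, 40 stayed within the limits used, which were 1.5 times for counts, 1 SD between stages for correlations and percentages, and the same sign for library measures. The count of 0 calls rose to 200 with DESeq2, which gave an adjusted p-value to 6668 transcripts, and to 5 without the replicate block. It stayed 0 with other scalings or filters and without any 1 stage, with 297 to 731 unadjusted. The fits without 1 stage have 1 residual degree of freedom, so 0 calls in them do not tell whether the count is stable. With 50 or more counts in 2 libraries, 678, 769 and 809 transcripts were past 2-fold at 64-cell, 256-cell and 1000-cell, and 61 nuclear and 23 cytosolic at all 3 stages, from 5825 transcripts tested. With a prior count of 10 the last numbers were 54 and 21, opposite 4-fold ratios fell to 99 transcripts, and the mean percentage past 2-fold in the least abundant bin was 25.3% in place of 44.5%. Without 1 stage, 184 to 362 transcripts were nuclear and 154 to 167 cytosolic at both others, by construction more than at all 3. At 50 counts in place of 100, 87 nuclear and 192 cytosolic transcripts were all-or-none at some stage, in place of 50 and 121. The mean nuclear minus cytosolic number of transcripts detected was 45.3 and ranged from -48 to 212 without 1 stage, with -28 without 256-cell and -48 without 1000-cell. Of 28 alternative fits of the named transcripts, 7 passed the threshold, 21 stayed short of it and 0 changed sign. Except where stated, the cause of these changes was not tested. At 10 counts or fewer, depth limits what a ratio can show.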
